A study of Mus musculus with 4 samples.

Results

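A set of 10 genes of neuronal RNA-binding and splicing proteins were examined in mouse forebrain in which the chromatin remodeller gene Chd7 had been deleted. They were taken by symbol from the deposited count table: Elavl2, Elavl3, Elavl4, Celf3, Celf4, Nova1, Nova2, Rbfox2, Srrm4 and Ptbp2, and 10 of 10 were found among its 24982 genes. Bulk polyA RNA sequencing was performed on forebrain micro-dissected at E10.5 (the embryonic day), with 2 libraries of the control genotype Chd7 +/f, which keeps 1 unfloxed allele and for which no Cre is listed, and 2 of the conditional knockout (cKO) genotype Sox1 cre+/-; Chd7 f/f. The Cre is named for Sox1, a gene of the early neural tube, and because it is listed for the cKO alone, an effect of the Cre allele and an effect of Chd7 loss cannot be told apart. The title places the comparison within the question of how CHD7 acts on neurogenic gene expression. The labels give neither litter nor sex and do not say whether a library came from 1 embryo or a pool, so p-values measure only the spread between these libraries, which may be technical.

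The libraries held 16581252 to 17096522 counted reads. Chd7 itself was at 339 and 345 CPM (counts scaled to library size) in control replicates 1 and 2 and at 136 and 132 CPM in cKO replicates 1 and 2, so the targeted gene followed the labels. The forebrain markers Lhx2, Otx2, Emx2 and Six3 were present in each library, with Lhx2 at 216 to 298 CPM in the control and 125 to 157 CPM in the cKO. Over all 14235 genes that passed the count filter, the median log2 fold change was -0.0003, and the edgeR quasi-likelihood test at an adjusted p under 0.05, the threshold for every call below, called 2.13% of them lower and 1.57% higher in the cKO. Lhx2 was itself called lower (log2 fold change -0.87, SE 0.15, edgeR adjusted p = 0.0295). The forebrain markers therefore show presence in each library and not equal levels between the groups.

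The proteins act on RNA after transcription. Members of the ELAVL family (Hu proteins) bind AU-rich and U-rich stretches and stabilise or splice their target transcripts; ELAVL1 is made by nearly every cell, whereas ELAVL2, ELAVL3 and ELAVL4 are neuronal and appear as a progenitor becomes a neuron. CELF, NOVA and RBFOX proteins bind GU-rich, YCAY and GCAUG elements and steer alternative exons, SRRM4 switches on neuronal microexons, including one in the transcript of the repressor REST, and PTBP2 replaces its paralog PTBP1 as neurons form. Counts were summed per gene, so they measure how much transcript each of these factors had and hold nothing on which exons were used.

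The Elavl genes include 2 of the 3 genes called lower, so the 250 bases before some of their annotated starts are shown (RefSeq, GRCm38.p6, gene strand, 5′ to 3′), limited to windows that touch no exon of GENCODE M21. The gene coordinates given further on are the RefSeq table's whole gene extents, and the windows shown lie partly (Elavl3 and distal Elavl4) or wholly (the others) inside them. The labels distal, proximal, upstream and downstream compare only the windows shown for a gene, and Elavl4 and Elavl2 have further annotated starts. Capitals mark 2 forms of the E-box, the element bound by proneural bHLH factors: CAGCTG, which reads the same on both strands, and CATCTG, which reads CAGATG on the other strand.
Elavl3 (chr9:22052024-22052273, minus strand): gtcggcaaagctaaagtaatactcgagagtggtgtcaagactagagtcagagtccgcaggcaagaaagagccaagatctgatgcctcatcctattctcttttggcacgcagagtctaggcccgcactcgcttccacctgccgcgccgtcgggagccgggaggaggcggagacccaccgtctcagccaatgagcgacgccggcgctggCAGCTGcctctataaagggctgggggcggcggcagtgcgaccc
Elavl4, distal start (chr4:110351912-110352161, minus strand): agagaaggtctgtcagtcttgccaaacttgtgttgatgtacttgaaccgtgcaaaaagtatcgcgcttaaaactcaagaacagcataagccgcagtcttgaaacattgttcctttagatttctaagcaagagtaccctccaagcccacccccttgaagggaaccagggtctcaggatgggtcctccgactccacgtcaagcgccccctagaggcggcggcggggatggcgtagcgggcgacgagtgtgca
Elavl4, proximal start (chr4:110287528-110287777, minus strand): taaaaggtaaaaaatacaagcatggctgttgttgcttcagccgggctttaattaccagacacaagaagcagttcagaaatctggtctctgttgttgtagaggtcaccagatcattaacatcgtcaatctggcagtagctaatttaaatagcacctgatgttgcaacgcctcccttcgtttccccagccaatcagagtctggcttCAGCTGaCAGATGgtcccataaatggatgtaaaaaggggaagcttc
Elavl2, upstream start (chr4:91376497-91376746, minus strand): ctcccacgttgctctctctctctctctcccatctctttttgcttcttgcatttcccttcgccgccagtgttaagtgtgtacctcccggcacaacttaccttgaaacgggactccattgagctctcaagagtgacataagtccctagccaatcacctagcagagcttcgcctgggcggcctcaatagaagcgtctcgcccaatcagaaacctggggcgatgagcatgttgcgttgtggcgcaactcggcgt
Elavl2, downstream start (chr4:91372070-91372319, minus strand): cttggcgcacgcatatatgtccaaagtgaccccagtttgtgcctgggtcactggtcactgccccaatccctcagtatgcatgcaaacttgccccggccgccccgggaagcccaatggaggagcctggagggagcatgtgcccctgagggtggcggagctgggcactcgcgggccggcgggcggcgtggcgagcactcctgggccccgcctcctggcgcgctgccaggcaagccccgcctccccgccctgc
The Elavl3 window held 1 CAGCTG, starting 43 bases before the start, with TATAAA at 33 bases and CCAAT on the same strand at 66 bases. The proximal Elavl4 window held CAGCTG at 46 bases and CAGATG at 39 bases, while the distal Elavl4 window and the 2 Elavl2 windows shown held neither form. Of 32851 such windows in the table, 13% held CAGCTG and 14.4% held CATCTG on either strand, counted separately though both may be present in one window. For 8 of the 10 genes 22 windows, many of them overlapping, were searched, and none for Celf4 or Rbfox2. Of those 8 genes, 5 (Elavl3, Elavl4, Celf3, Nova1 and Srrm4) had at least 1 window with either form. The share was 28.2% of all 27025 genes in the table. Whether the windows of all genes were chosen in the same way is not given, so comparisons with all genes or windows are descriptions only. A gene with more windows has more chances of a match, and Celf3 had 7 windows and Elavl4 had 4. The half-site of the REST element searched for, TTCAGCACC on either strand, matched 0 of the 22 windows and 0.301% of all windows. A match is a run of letters and was not tested as a binding site.

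In the cKO forebrain 3 of the 10 genes were lower and 0 higher: the ELAVL genes Elavl3 and Elavl4 and the splicing regulator Nova1, against 2.13% of all genes called lower. All 10 passed the count filter. The estimate was below 0 for 10 of 10, with a median log2 fold change of -0.42, and 8 of 10 had an unadjusted p under 0.05, against 9.10% of all genes tested with such a p and a lower value. Both cKO libraries lay below both controls for 8 of 10, where 24.0% of all genes tested had this order; Celf4 and Rbfox2 were the exceptions. Their summed level was 1136 and 990 CPM in control replicates 1 and 2 and 856 and 839 CPM in the cKO libraries. Control replicate 1 was the higher control for 8 of the 10, again all but Celf4 and Rbfox2. The share of all genes tested with this order of the controls is not given, so the count is a description only.

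**Figure D1:**
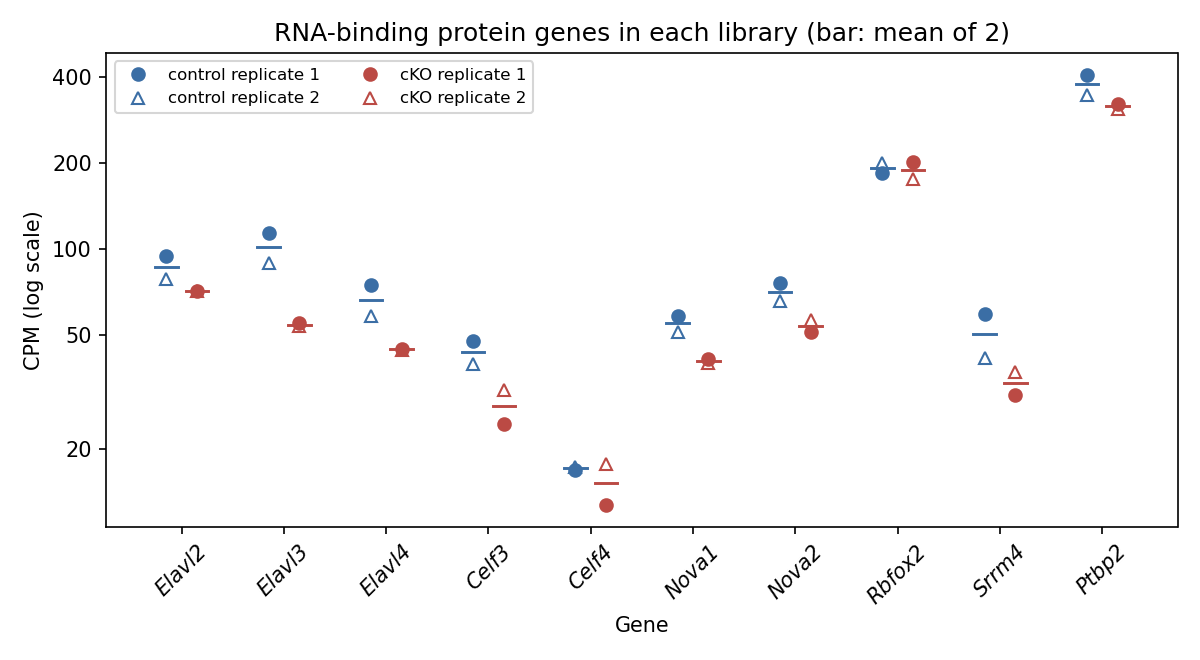
Level of each gene in CPM (log axis) in the 2 control (blue) and 2 cKO (red) libraries, with circles for replicate 1, triangles for replicate 2 and a bar at the group mean. Red symbols lie below blue ones for 8 of the 10 genes, and the groups overlap for Celf4 and Rbfox2.

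Elavl3 (HuC, GRCm38 chromosome 9, 22015005 to 22052146), whose protein is a standard marker of new neurons, was at 114 and 89.4 CPM in control replicates 1 and 2 and at 55.2 and 53.7 CPM in cKO replicates 1 and 2. The cKO libraries lay close together, and even the lower control stood well above them. The gene fell to 53.5% of the control level (log2 fold change -0.90, SE 0.11, edgeR adjusted p = 0.0078), which placed it 108th by p among all genes tested. Its call was kept in each of 12 alternative settings, with adjusted p from 2.9e-10 to 0.036. Elavl4 (HuD, chromosome 4, 110203737 to 110351939), which stabilises transcripts of growing neurites, was at 74.9 and 58.3 CPM in the control and 44.7 and 44.5 CPM in the cKO libraries. It fell to 67% of control (log2 fold change -0.58, SE 0.11, edgeR adjusted p = 0.042). The Elavl4 call ended when a single library was removed, be it control replicate 1 (-0.39 at an adjusted p of 0.076), cKO replicate 1 (-0.58 at 0.109) or cKO replicate 2 (-0.57 at 0.157), and limma-voom with all 4 libraries did not call it (-0.57 at 0.054).

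Elavl2 (HuB, chromosome 4, 91211533 to 91400108), the third neuronal member, was at 94.5 and 78.6 CPM in the control and 71.2 and 71.5 CPM in the cKO libraries. The groups did not overlap, but the lower control was nearer to the cKO libraries than to the other control, and the gene was not called (log2 fold change -0.28, SE 0.09, edgeR adjusted p = 0.16). Elavl2 was called once control replicate 2 was removed (-0.41 at an adjusted p of 0.013), and removing control replicate 1 gave an estimate of -0.14. Elavl1 (HuR), the member made by most cells, was at 210.5 and 209 CPM in the control and 211 and 210.1 CPM in the cKO libraries (log2 fold change 0.01, SE 0.04). The ratio of Elavl3 to Elavl2 reads, which is free of library scaling, was 1.21 and 1.14 in the control and 0.776 and 0.751 in the cKO libraries. The summed reads of Elavl2, Elavl3 and Elavl4 went from 1.35 and 1.08 times those of Elavl1 to 0.809 and 0.807 times. The Elavl3 to Elavl4 ratio was 1.53 in each control and 1.23 and 1.21 in the cKO libraries. None of these ratios overlapped between the groups; with 2 libraries against 2 the smallest p an exact two-sided permutation test can give is 0.333, so they carry no test.

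Per kilobase of exon, Ptbp2 (41.2 ± 4.7 CPM per kb in the control, SD, n = 2) and Rbfox2 (23.7 ± 1.4) were the most abundant of the 10 genes and Celf4 (1.99 ± 0.032) the least. The other 7 ran from Elavl3 down through Elavl4, Elavl2, Nova2, Celf3 and Nova1 to Srrm4 (5.82 ± 1.5), and neighbours in this order differed by no more than the larger SD of the pair, apart from the steps from Elavl2 to Nova2 and from Celf3 to Nova1. Elavl3 led the neuronal Elavl genes in the control, at 14.8 ± 2.6 CPM per kb (SD, n = 2), followed by Elavl4 at 12.4 ± 2.2 and Elavl2 at 10.4 ± 1.3 CPM per kb, neighbours that differ by about their spread. In the cKO the 3 genes were at 7.90 ± 0.16, 8.28 ± 0.031 and 8.58 ± 0.024 CPM per kb in the same order, which reversed their ranking. Elavl1 was at 20.2 ± 0.11 CPM per kb in the control and 20.3 ± 0.085 in the cKO. Lengths are the union of all GENCODE M21 exons of a gene, so a gene with a rarely used long exon appears lower than its transcripts are.

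Neither CELF gene among the 10 was called. Celf3 (chromosome 3, 94478285 to 94496786), a brain-restricted splicing regulator, was at 47.7 and 39.7 CPM in the control and 24.4 and 32.1 CPM in the cKO libraries. The groups did not overlap, yet the cKO libraries differed from each other by about as much as the nearest control and cKO libraries did. Its log2 fold change of -0.63 (SE 0.15) missed the threshold (edgeR adjusted p = 0.067). Removing control replicate 2 (-0.75 at an adjusted p of 0.022) or cKO replicate 2 (-0.84 at 0.041) brought the gene past the threshold, and removing cKO replicate 1 gave -0.44. Celf4, of the same brain-enriched group, was the least abundant of the 10, at 16.9 and 17.3 CPM in the control and 12.7 and 17.7 CPM in the cKO libraries. Its cKO replicate 2 was the highest of the 4 libraries (log2 fold change -0.17, SE 0.17, edgeR adjusted p = 0.686), and without cKO replicate 1 the estimate was 0.05. Outside the 10, Celf2 (chromosome 2, 6539694 to 7396341), which is widespread in the embryo and strong in neural tissue, was lower. It was at 170.4 and 153 CPM in the control and 109 and 119 CPM in the cKO libraries (log2 fold change -0.50, SE 0.07, edgeR adjusted p = 0.012) and was called in each of 12 alternative settings. Celf5 had a log2 fold change of -0.46 (SE 0.15) and Celf6, at 1.21 to 2.16 CPM, of -0.71 (SE 0.36), neither of them called. The ubiquitous Celf1 was at 450.0 and 439.7 CPM in the control and 441 and 445 CPM in the cKO libraries.

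Of the 2 NOVA genes, named for the autoantigens of a neurological syndrome and known for regulating exons of synaptic proteins, Nova1 was called lower and Nova2 was not. Nova1 (chromosome 12, 46697895 to 46819480) was at 58.6 and 51.4 CPM in the control and 41.2 and 39.9 CPM in the cKO libraries. The lower control stood clear of both cKO libraries, and the gene fell to 73.8% of control (log2 fold change -0.44, SE 0.09, edgeR adjusted p = 0.040). The Nova1 call, too, ended on removal of control replicate 1 (-0.34 at an adjusted p of 0.14), cKO replicate 1 (-0.46 at 0.102) or cKO replicate 2 (-0.41 at 0.18). Nova2 (chromosome 7, 18925888 to 18965319) was at 76.4 and 65.7 CPM in the control and 51.3 and 56.6 CPM in the cKO libraries. The estimate was -0.40 (SE 0.09, edgeR adjusted p = 0.063) without overlap of the groups, and the gene was called once control replicate 2 was removed (-0.50 at an adjusted p of 0.013). The ratio of Nova1 to Nova2 reads was 0.767 and 0.782 in the control and 0.804 and 0.705 in the cKO libraries, which overlap. Nova2 shares 31.7% of its exon bases with the opposite-strand gene Gm26821 of GENCODE M21, and without strand information reads there could come from either gene; Gm26821 has no row in the count table. For the other 9 genes the shared part was at most 3.72%.

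Rbfox2 (chromosome 15, 77078990 to 77308434), the broadly expressed RBFOX member that is active in progenitors as well as neurons, was at 185 and 200.4 CPM in the control and 202 and 176 CPM in the cKO libraries. The groups overlapped fully (log2 fold change -0.03, SE 0.07, edgeR adjusted p = 0.89), and leaving out a library moved the estimate between -0.13 and 0.07. Its relatives Rbfox1 and Rbfox3 (NeuN), which mark maturing neurons, were low, at 1.18 to 2.01 CPM and 5.77 to 8.52 CPM. Both had higher values in the 2 cKO libraries than in the 2 controls (log2 fold changes 0.66, SE 0.37, and 0.41, SE 0.18), but neither was called (edgeR adjusted p = 0.421 and 0.313).

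Srrm4 (nSR100, chromosome 5, 116439268 to 116592562), the microexon activator, was at 59.5 and 41.6 CPM in the control and 30.9 and 37.3 CPM in the cKO libraries. Control replicate 1 stood apart, and control replicate 2 was closer to cKO replicate 2 than to the other control. Its log2 fold change of -0.57 (SE 0.17) was not called (edgeR adjusted p = 0.135), and went from -0.80 on removal of control replicate 2 (adjusted p = 0.0053) to -0.28 on removal of control replicate 1 (0.423). The related microexon factor Srrm3 averaged 6.15 ± 0.21 CPM in control libraries and 4.36 ± 0.11 in cKO libraries (SD, n = 2) (-0.50, SE 0.21, edgeR adjusted p = 0.275). The general splicing coactivators Srrm1 and Srrm2 had log2 fold changes of -0.01 each (SE 0.05 and 0.04). Rest, the repressor that SRRM4-dependent splicing inactivates and that in turn represses neuronal genes, was at 40.7 and 43.2 CPM in the control and 48.6 and 45.5 CPM in the cKO libraries (0.17, SE 0.08, adjusted p = 0.333). Its groups did not overlap, as for 24.3% of all genes with cKO above control.

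Ptbp2 (nPTB, chromosome 3, 119718741 to 119784647) was the most abundant of the 10, at 408 and 347 CPM in the control and 323 and 309.9 CPM in the cKO libraries. The distance between the controls was larger than that between control replicate 2 and cKO replicate 1, and the gene was not called (log2 fold change -0.25, SE 0.08, edgeR adjusted p = 0.131). Ptbp2 was called once control replicate 2 was removed (-0.37 at an adjusted p of 0.0072), and removing control replicate 1 gave -0.13. Ptbp1, the progenitor paralog that blocks neuronal exons, was at 504 and 577 CPM in the control and 573 and 586 CPM in the cKO libraries (0.10, SE 0.06, adjusted p = 0.491). The ratio of Ptbp2 to Ptbp1 reads was 0.809 and 0.601 in the control and 0.564 and 0.529 in the cKO libraries, with most of the distance between the groups set by control replicate 1. Ptbp3 was at 94.2 and 103 CPM in the control and 119 and 106 CPM in the cKO libraries (0.18, SE 0.08, adjusted p = 0.276). Exons of Ptbp1 share 20.7% of their bases with opposite-strand genes.

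**Figure D2:**
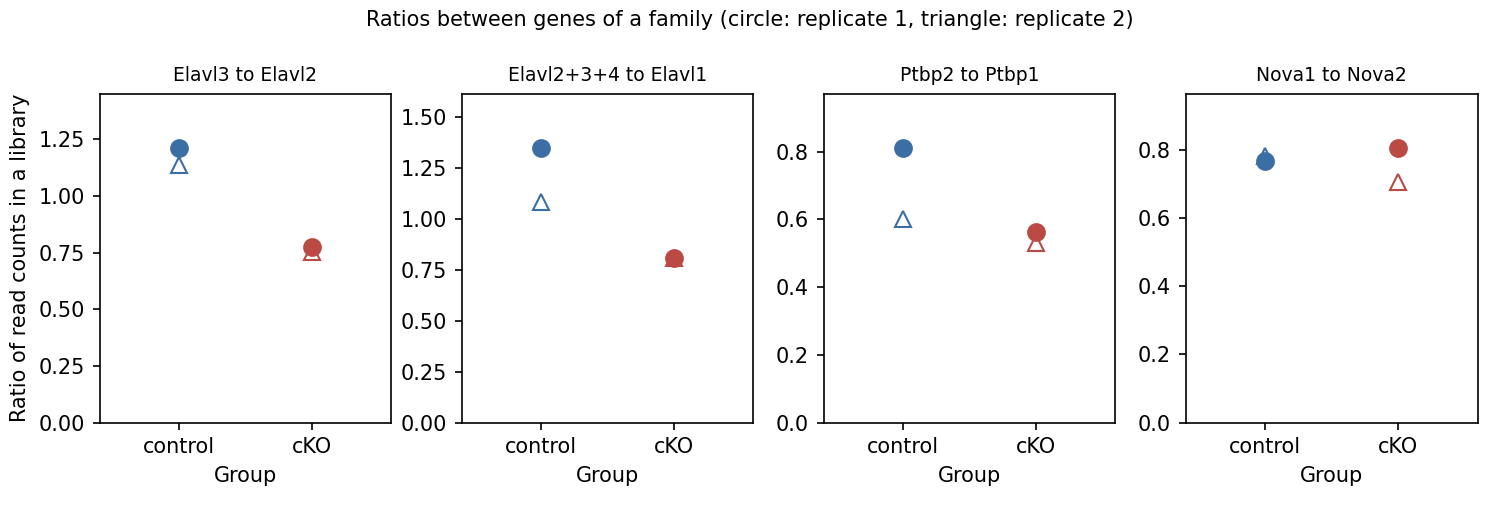
Ratios of read counts within a library for 4 pairs of related genes, in control (blue) and cKO (red) libraries, with circles for replicate 1 and triangles for replicate 2. Elavl3 to Elavl2 drops from 1.14 or more to 0.776 or less, while Nova1 to Nova2 stays between 0.705 and 0.804 with overlapping groups.

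Among the 12 paralogs outside the 10 genes, 1 was called lower (Celf2) and 0 higher, with a median log2 fold change of -0.01; 4 had an unadjusted p under 0.05, and DESeq2 and limma-voom also called 0 higher. The 4 paralogs with estimates of -0.46 or below were Celf2, Celf5, Celf6 and Srrm3, and the broadly expressed Elavl1, Celf1, Srrm1, Srrm2 and Ptbp1 lay between -0.01 and 0.10. The remaining paralogs, Rbfox1 (0.66, SE 0.37), Rbfox3 (0.41, SE 0.18) and Ptbp3 (0.18, SE 0.08), had higher estimates. Ptbp3 was among the 4 with an unadjusted p under 0.05, so those did not all go the same way. The share of all genes tested with such a p in either direction is not given. This count and the like counts below are therefore descriptions only. Of 40 other RNA-binding regulators of chosen transcripts, 2 were higher and 0 lower: Rbms2 (83.1 and 89.8 to 111 and 109 CPM, log2 fold change 0.35, SE 0.06, edgeR adjusted p = 0.026) and Zfp36l1, which speeds the decay of AU-rich transcripts (349.7 and 343 to 411 and 406 CPM, 0.24, SE 0.04, adjusted p = 0.028). The background of higher calls is 1.57%. The Zfp36l1 call ended with any library left out, and the Rbms2 call with any but control replicate 2. With the replicate number as a block in the edgeR fit, neither was called (adjusted p = 0.0577 for Rbms2 and 0.0521 for Zfp36l1). DESeq2 called 3 of the 40 higher and 1 lower. Of 60 genes of the general splicing machinery (spliceosome subunits, SR proteins and hnRNPs), edgeR called 0 in either direction, as did DESeq2 and limma-voom, and 1 had an unadjusted p under 0.05 (Srsf4, -0.21, SE 0.08). Their estimates ran from -0.21 to 0.10 with a median of -0.002. Of 10 genes of REST and its corepressors, edgeR and DESeq2 called 0, and the 2 with an unadjusted p under 0.05 were Hdac2 (-0.14, SE 0.05) and Rcor2 (-0.17, SE 0.06).

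**Figure D3:**
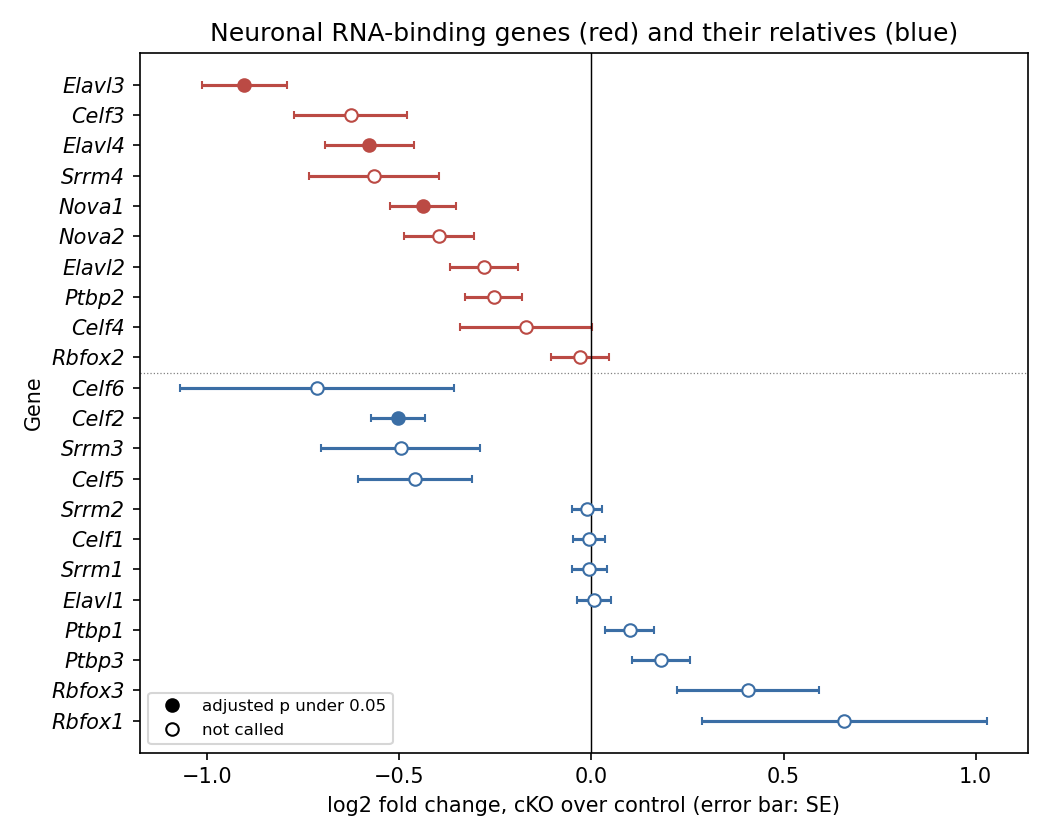
Log2 fold change (cKO over control) with its SE for the 10 genes (red, above the dotted line) and their 12 paralogs (blue), with filled symbols for an adjusted p under 0.05. The filled symbols are Elavl3, Elavl4, Nova1 and Celf2, and the broadly expressed Elavl1, Celf1, Srrm1 and Srrm2 sit at 0.

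The number called rested on the libraries and the test. It was 1 of 10 without control replicate 1 (Elavl3), 8 without control replicate 2 (all but Celf4 and Rbfox2), 1 without cKO replicate 1 (Elavl3) and 2 without cKO replicate 2 (Elavl3 and Celf3), while 1.22%, 2.86%, 1.30% and 0.894% of all genes were called lower in those fits. The DESeq2 Wald test called 7 of 10 lower, adding Celf3, Nova2, Srrm4 and Ptbp2, with 2.47% of all genes called lower. The authors' deposited table, which comes from DESeq2 on the same 4 libraries, has 7 of the 10 at an adjusted p under 0.05. It is not independent of the DESeq2 fit here, and the share of all its genes under that threshold is not given. In the authors' deposited table the log2 fold change of Elavl3 is -0.91 (adjusted p = 1.2e-10), that of Ptbp2 -0.26 (0.025) and that of Elavl2 -0.28 (0.203). The estimates themselves differed little between the fits with 4 libraries.

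**Figure D4:**
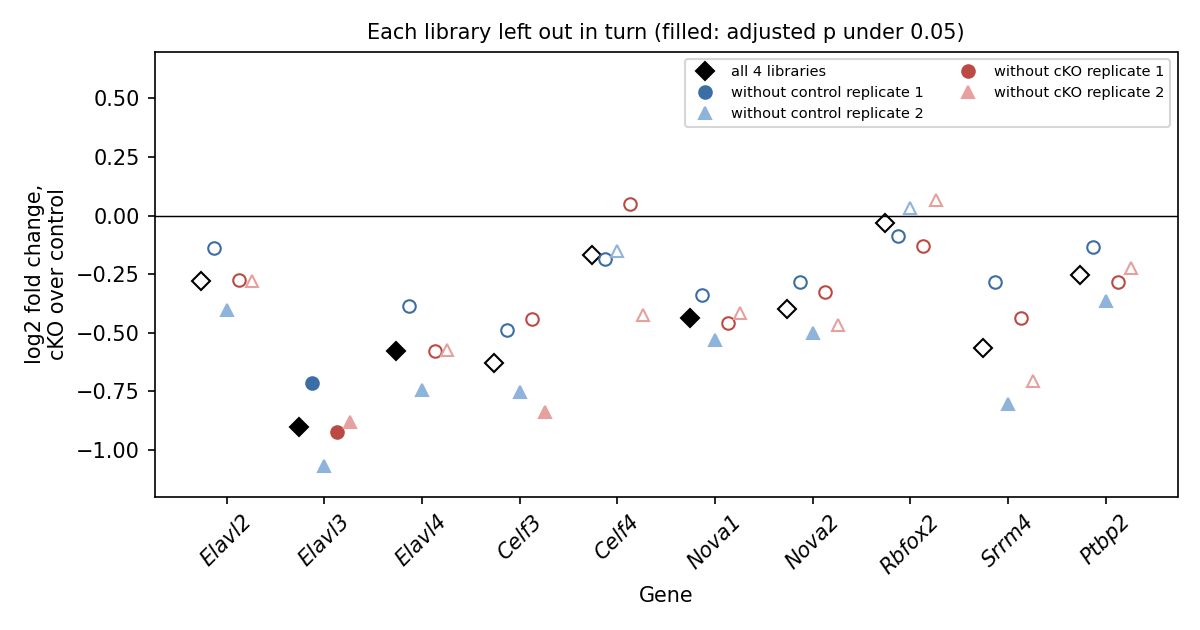
Log2 fold change (cKO over control) of each gene with all 4 libraries (black diamonds) and with each library left out, with filled symbols for an adjusted p under 0.05. Elavl3 is filled in each fit, from -1.07 to -0.72, and without control replicate 2 (light blue triangles) 8 of the 10 genes are filled.

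Markers of neurons moved in the same comparison: 8 of 34 neuronal markers outside the 10 genes were called lower and 0 higher. Among those 8 were the tubulin gene Tubb3 (log2 fold change -0.66) and the tau gene Mapt (-1.52). Over all genes tested, 2.13% were called lower. The median log2 fold change of the 34 markers was -0.42. Without a library, 4 to 15 of them were called lower, the lowest without cKO replicate 2 and the highest without control replicate 2. Their summed level was 2951 and 2559 CPM in control replicates 1 and 2 and 1949 and 2119 CPM in cKO replicates 1 and 2, again highest in control replicate 1. In bulk tissue fewer neurons and less RNA per neuron cannot be told apart. Set against the summed reads of these markers, Elavl3 was at 3.87% and 3.49% in the control and 2.83% and 2.53% in the cKO libraries, without overlap. Elavl4 (2.54% and 2.28% against 2.30% and 2.10%), Nova1 (1.99% and 2.01% against 2.12% and 1.89%), Celf4 (0.573% and 0.676% against 0.653% and 0.835%) and Srrm4 (2.02% and 1.62% against 1.59% and 1.76%) had shares that overlapped between the groups. Celf3 was at lower shares in both cKO libraries (1.62% and 1.55% against 1.25% and 1.52%), though the nearest libraries were almost level. Elavl2 (3.20% and 3.07% against 3.65% and 3.37%), Ptbp2 (13.8% and 13.6% against 16.6% and 14.6%) and Rbfox2 (6.27% and 7.83% against 10.3% and 8.30%) were at higher shares in both cKO libraries than in both controls, as was Nova2 by a small margin (2.59% and 2.57% against 2.63% and 2.67%). No test was made on these shares.

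Of 12 neural progenitor markers, 5 were called lower and 0 higher (summed 3831 to 4299 CPM in the control and 3369 to 3588 CPM in the cKO). Of 9 tested erythroid genes, 6 were called lower (2852 to 3071 against 1808 to 1895 CPM). Over all genes tested, 2.13% were called lower. Hba-a1, Hba-a2, Hbb-bs and Hbb-bt were at 0 in each library. Without a library, 2 to 8 of the progenitor markers and 4 or 5 of the erythroid genes were called lower. EdgeR called 0 of 12 endothelial genes (335 to 344 against 288 CPM in each cKO library). It called 0 of 15 mesenchyme and neural crest genes (1016 to 1216 against 735 to 1166 CPM). Of the microglial (32.2 to 33.4 against 23.7 to 29.8 CPM) and surface ectoderm genes it called 0 of 8 each. In that order of lists, 8, 4, 0 and 1 genes had an unadjusted p under 0.05, and DESeq2 called 0, 0, 0 and 1. The share of all genes with such a p in either direction is not given. Without cKO replicate 1, 4 mesenchyme and crest genes were called lower, and without control replicate 2, 6 surface ectoderm genes were called higher. The surface ectoderm sum was 15.1 CPM in control replicate 1 and 52.7 to 69.2 CPM in the other 3 libraries, with the epithelial factor Trp63 at 0 in control replicate 1. The part of these other cells in the values of the RNA-binding genes was not tested; with the erythroid genes removed before scaling, Elavl3, Elavl4 and Nova1 were called and their log2 fold changes were -0.90, -0.58 and -0.44.

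The genes whose pattern lay nearest to the mean of the 10 were sought among 8131 other genes that averaged 20 CPM or more, by the root mean square distance of log2 CPM centred over the 4 libraries. They were Uchl1, a ubiquitin hydrolase abundant in neurons (distance 0.0135), Crmp1, a collapsin response mediator (0.0235), the zinc finger gene Zbtb18 (0.0246), the BAF subunit gene Dpf1 (0.0263) and Lbh (0.0305). Uchl1 was at 133 and 116 CPM in the control and 88.7 and 96.1 CPM in the cKO libraries. Of the 10 genes themselves, Nova2 lay closest to the mean profile (0.022), and Rbfox2 (0.251) and Elavl3 (0.244) lay farthest from it. Rbfox2 had flat levels and Elavl3 the largest difference between the groups. Each of the 10 enters that mean, so their distances are not on a par with those of the other genes. With 4 libraries many genes share such a profile, and the distance is a description.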

How the data were processed

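The authors deposited raw read counts per gene of 4 libraries and a comparison table. Per the submitters' processing notes, reads were processed with HISAT2, featureCounts and DESeq2 on mm10 (GRCm38); per the file headers, featureCounts 2.0.1 counted read pairs over exons of a RefSeq annotation with no strand option. The authors' table holds normalized counts (a signal: counts over 1 size factor per library), log2 fold changes and their errors, p-values and a Wald score, deposited by the authors and printed here only where that table is named. The members and gene lists were chosen with earlier results of these data known.

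Genes were kept by filterByExpr (minimum count 10), leaving 14235, and scaled by TMM. Groups were compared with edgeR 4.0.16 (glmQLFit, glmQLFTest; R 4.3.3), no covariate, Benjamini-Hochberg over all genes tested; SE is the estimate over the root of F. DESeq2 1.42.0 and limma 3.58.1 were alternatives. Replicates differed by more than sampling noise (chi-square per degree of freedom 5.53 and 4.65). On simulated counts of 14071 genes the edgeR step recovered 70.1%, 95.5% and 100% of genes changed 1.5-, 2- and 4-fold, with 8 false calls among 185. The changed genes averaged 5 CPM or more, and spread followed the dispersion trend with no gene-specific part. Recovery in the real data may therefore be lower. Of 50-base stretches in GENCODE M21 transcripts, 0% to 3.11% per member occur in another gene. The named genes are the 10 members, their paralogs, Rest, Chd7, up to 4 called genes per list (where none was called, 2 by smallest p), and the 5 nearest profiles; 0 columns lacked a sample. Forebrain markers named beyond that rule, Trp63, the 4 globin genes at 0 and the searched motifs were chosen after values were seen. Plots were drawn with matplotlib 3.10.9. A result on 1 forebrain marker is not reported here.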

Additional observations from a re-analysis of the deposited data

How the results depend on the processing

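In all fits with 4 libraries 10 of 10 estimates were below 0; with a library left out Celf4 (without cKO replicate 1) and Rbfox2 (without control replicate 2 or cKO replicate 2) had estimates above 0. The count of the 10 RNA-binding genes called lower, 3 with all libraries, was 7 by the DESeq2 Wald test, 2 by limma-voom (Elavl3 and Nova1) and 1 to 8 with a library left out, where fewer samples enter the fit and the remaining sample of that group is taken to vary as much as the other group does; the cause of the difference between tests was not tested. Over all genes, 303 lower and 223 higher became 131 to 418 and 80 to 351 with a library left out. With the replicate number as a replicate block, 1 member (Elavl3) was called lower, and 211 genes lower and 137 higher; the numbers share no stated litter or day, and deviations of same-numbered libraries correlated at -0.0531, so the numbers are not taken as pairs. Scaling by upper quartile or by DESeq2 size factors, dropping the count filter, keeping only genes that average 5 CPM or more, and removing erythroid genes each left 3 members called lower, Elavl3, Elavl4 and Nova1. Under DESeq2 size factors the summed member level, cKO over control on the log2 scale, was -0.33, as with TMM. Among single genes and lists, 42 values lost a call, 11 gained one and 23 counts moved by over 1.5 times or to or from 0. The move of the erythroid count on removal of those genes was fixed in advance. In these fits 0 called genes changed sign.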
